A study of Mus musculus with 8 samples.

Results

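The respiratory chain and ATP synthase are described here through 81 nuclear genes, taken by symbol from the 15859 genes of a count table of mouse distal colon. The rule took the *Nduf* subunits of complex I, *Sdha* to *Sdhd*, the *Uqcr* genes with *Cyc1*, the *Cox4* to *Cox8* genes and all *Atp5* symbols. It gave 35 genes for complex I, 4 for complex II, 9 for complex III, 10 for complex IV and 17 for complex V, with 6 tissue or condition isoforms set apart (*Cox7a1*, *Cox4i2*, *Cox6a2*, *Cox6b2*, *Cox8b* and *Ndufa4l2*). All 81 passed the filter on low counts, as did 14371 genes in all. *Ndufa4* is counted by its symbol with complex I although it is now placed with complex IV, and *Atp5s* and *Atp5sl* are counted with complex V although neither is a structural subunit of the enzyme. The 13 subunits encoded by mitochondrial DNA were not analysed here.

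The samples were distal colons of 8 male mice on a BALB/c x 129SvEV background, 2 in each of 4 groups. *Hsf1* null mice lack the stress-responsive transcription factor HSF1 in all cells, and WT mice carry it. The day 0 mice of both genotypes were untreated. The day 15 mice of both genotypes had received azoxymethane (AOM) at 10 mg/kg by injection at 8 weeks of age, then 1.5% dextran sodium sulfate (DSS) in drinking water for 5 days from day 7, a schedule that damages and inflames the colon lining and precedes tumors. The sample labels give an age of 10 weeks for every mouse, untreated ones included, whereas the design text of the series gives a slightly lower age. The treatment text places the end of the experiment after the 5 days of DSS, whereas the titles say day 15. The comparisons ask how the genotypes differ before and after AOM-DSS, and how day 15 differs from day 0 in each genotype.

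Complexes I to IV of the inner mitochondrial membrane pass electrons from NADH and succinate to oxygen and, except for complex II, pump protons, and complex V, the ATP synthase, uses the proton gradient to make ATP. Absorptive colonocytes draw much of their energy from the oxidation of butyrate in mitochondria. Some subunits of complex IV exist as paralogous isoforms, of which COX7A1, COX6A2 and COX8B are known from heart, skeletal muscle or brown fat, COX4I2 from lung and oxygen-regulated cells, and COX6B2 from testis.

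*Hsf1* itself followed the labels. Its level, in CPM (counts scaled to a common library total), was 40.5 and 36.5 in WT mice of day 0, 50.5 and 45.9 in those of day 15, 14.0 and 11.9 in the null mice of day 0, and 13.5 and 9.09 in those of day 15, so that reads remained in the null mice. The log2 fold change (null minus WT) was -2.10 at day 15 (standard error, SE, 0.30, edgeR quasi-likelihood adjusted p = 0.0137), a call that held in 5 of the 8 fits that left out 1 mouse. At day 0 it was -1.57 (SE 0.30, adjusted p = 0.775). Libraries held 2553348 to 12440257 counts. The second mouse of each day 0 group was the shallowest, and mice of a group correlated at 0.953 to 0.959 (Pearson's r of log2 CPM across genes). The colon epithelial genes *Epcam* and *Muc2* and the smooth muscle gene *Myh11* were present in every mouse. A gene is called below when its adjusted p was under 0.05 and its absolute log2 fold change above 1. The labels do not say more of the 2 mice of a group than that they were separate samples. The p-values rest on the spread between mice of a group, estimated over all 4 groups together with information shared across genes.

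At day 15 most respiratory chain genes had higher values in *Hsf1* null than in WT colon, and 5 of them passed the test. Of the 81 genes, 66 had a positive log2 fold change, with a median of 0.47 beside -0.03 over all genes tested. The values of both null mice lay above those of both WT mice for 49 of the 81, where this held for 26.3% of all genes, and below them for 5, where it held for 28.6%. The 5 genes called higher were *Cox7a1*, *Cox7a2*, *Ndufa2*, *Ndufa5* and *Uqcrb*, and 0 of the 81 were called lower, with 1.91% and 1.25% of all genes called in those directions. At an unadjusted p under 0.05 the numbers were 27 higher and 0 lower, and 11.6% of all genes were higher by that measure.

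**Figure D1:**
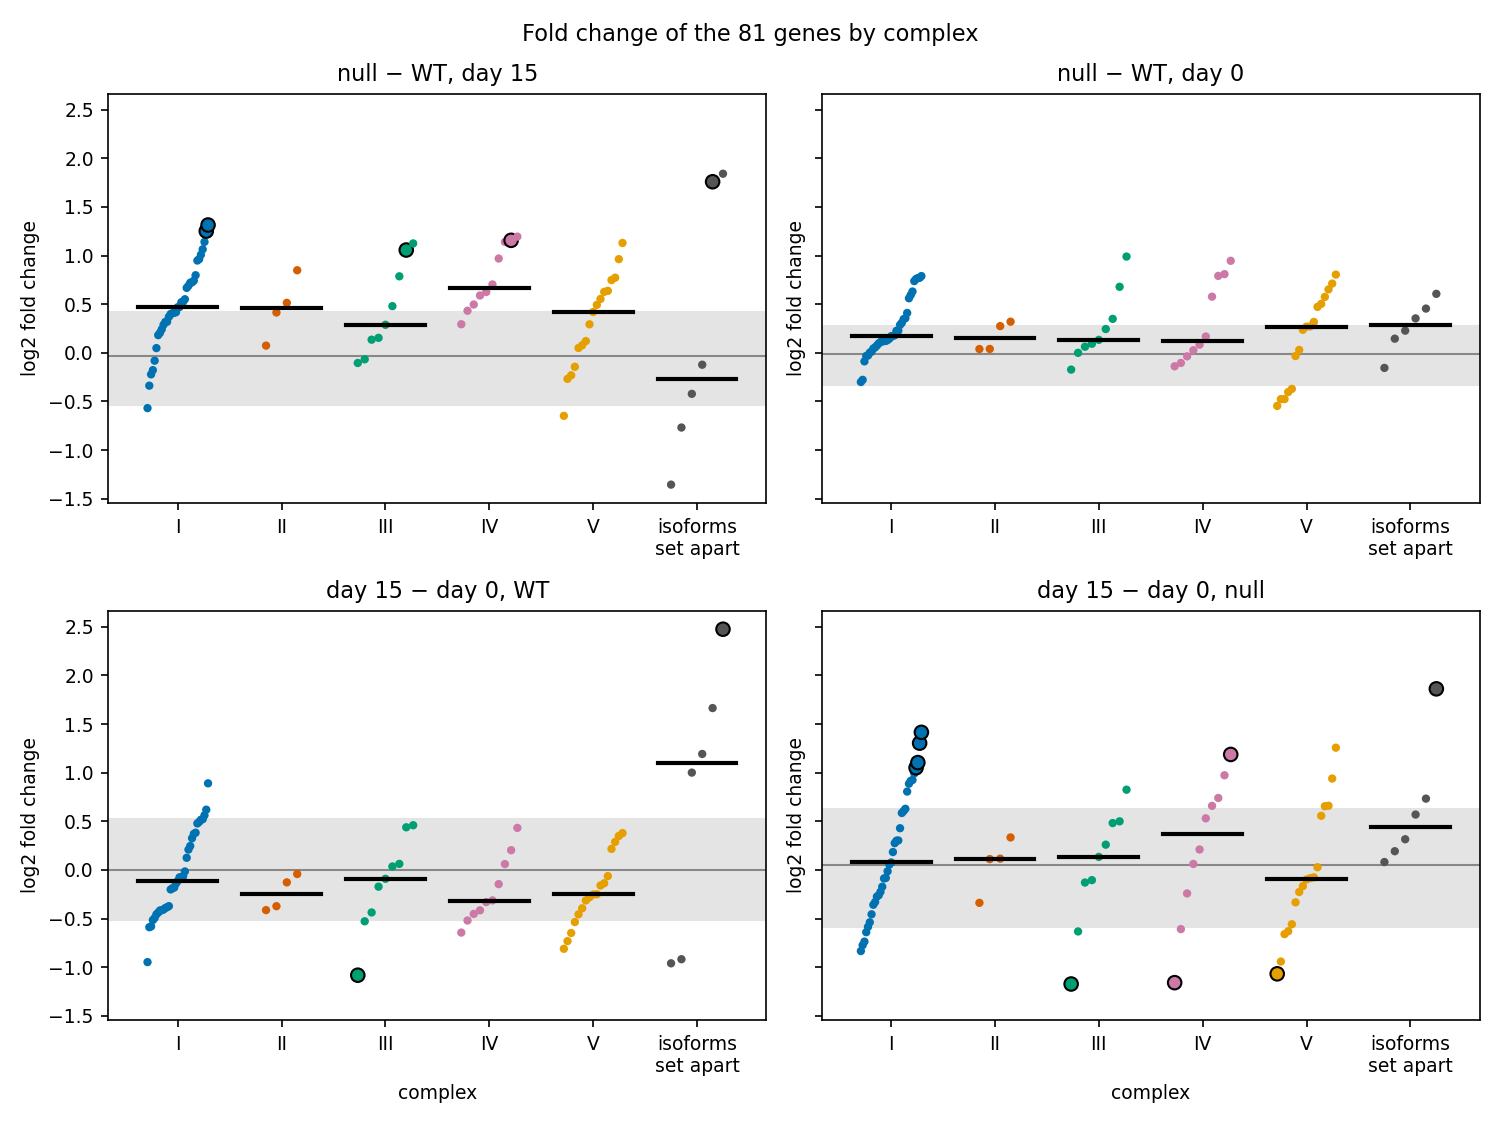
Log2 fold change (vertical axis) of each of the 81 genes by complex (horizontal axis) in 4 comparisons. Each point is a gene, black bars are medians, large outlined points are called genes, the grey line is the median of all genes tested and the grey band the range between their quartiles. At day 15 all 10 complex IV genes lie above the median of all genes in the null minus WT panel.

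The call counts depended on single mice. Over all genes, 455 were called between the genotypes at day 15. Without WT replicate 1 or 2 of day 0 there were 3 member calls, with 359 and 350 over all genes, and without WT replicate 1 of day 15 there was 1 (*Cox7a1*), with 345. Without WT replicate 2 or null replicate 1 of day 15 there were 0, with 19 and 30 over all genes, and without either null mouse of day 0 there were also 0, with 12. Without null replicate 2 of day 15 there were 5, of which 3 (*Cox7a1*, *Ndufa2* and *Ndufa5*) were among those called with all mice, with 873 over all genes. The call of *Cox7a1* held in 4 of the 8 fits that left out 1 mouse and those of *Ndufa2* and *Ndufa5* in 3, while those of *Cox7a2* and *Uqcrb* held in 0. In a fit of the day 15 mice alone 0 members and 6 genes in all were called, whereas the median log2 fold change stayed between 0.35 and 0.60 when each mouse was left out in turn.

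Complex I takes electrons from NADH. Of its 35 genes, 30 were higher in the null mice at day 15, and their median was 0.47. *Ndufa5*, an accessory subunit of the peripheral arm (ENSMUSG00000023089, chromosome 6, 24518666 to 24528013, GRCm38), stood at 54.4 and 69.6 CPM in WT and at 162 and 147 in null mice, a 2.49-fold difference (log2 1.31, SE 0.23, edgeR adjusted p = 0.0232). *Ndufa2*, another accessory subunit of that arm, was at 245 and 274 CPM in WT and 649 and 588 in null mice (log2 1.25, SE 0.23, edgeR adjusted p = 0.0274). For both genes the 2 groups were well separated, and both null groups also lay above both WT groups at their own day.

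The catalytic subunits of complex I described here did not pass the test at day 15. *Ndufs8*, which carries a pair of iron-sulfur clusters, stood at 278 and 254 CPM in WT and 194 and 165 in null mice (log2 -0.57, SE 0.29, edgeR adjusted p = 0.27). Its groups did not overlap, with the null mice lower. *Ndufv1*, which binds NADH, was at 168 and 126 CPM in WT and 155 and 97.1 in null mice, with overlapping values, and *Ndufs1* was at 91.3 and 84.0 against 98.2 and 121. *Ndufa6*, an accessory subunit, was at 282 and 266 against 568 and 500 CPM (log2 0.96, SE 0.30, edgeR adjusted p = 0.0963). It lies on chromosome 15 at 5.85 Mb from *Hsf1*.

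Complex II, succinate dehydrogenase, is also an enzyme of the citric acid cycle. Its 4 genes were higher in the null mice at day 15 (median 0.46). *Sdha*, the flavoprotein subunit that oxidizes succinate, was at 205 and 189 CPM in WT and 351 and 359 in null mice (log2 0.85, SE 0.22, edgeR adjusted p = 0.0646). *Sdhd*, a membrane anchor, was at 242 and 160 against 229 and 193 CPM, with overlapping groups (log2 0.07, SE 0.27, edgeR adjusted p = 0.90). None of the 4 genes was called in any comparison, and 1 of them, *Sdha*, had an unadjusted p under 0.05 at day 15.

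Complex III passes electrons to cytochrome c. The median of its 9 genes was 0.29 at day 15, with 7 higher and 2 lower. *Uqcrb*, which helps to shape the quinone-binding pocket (ENSMUSG00000021520, chromosome 13), was at 135 and 137 CPM in WT and 253 and 312 in null mice, a 2.08-fold difference (log2 1.06, SE 0.23, edgeR adjusted p = 0.0441), a call that was lost without any 1 of the 8 mice. *Uqcrh*, the hinge protein at the cytochrome c docking site, was at 672 and 652 against 1584 and 1305 CPM (log2 1.13, SE 0.28, edgeR adjusted p = 0.0606). The catalytic Rieske protein gene *Uqcrfs1* was at 224 and 195 against 194 and 196 CPM (log2 -0.10, SE 0.26, edgeR adjusted p = 0.85), and its groups overlapped. *Cyc1*, cytochrome c1, which lies 131 kb from the *Hsf1* locus on chromosome 15, was at 332 and 272 against 433 and 304 CPM (log2 0.29, SE 0.28, edgeR adjusted p = 0.57).

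Complex IV, cytochrome c oxidase, which reduces oxygen, had the highest median of the 5 complexes at day 15, 0.66. All 10 genes counted with it were higher in the null mice, and for all 10 both null mice lay above both WT mice, as for 26.3% of all genes. The 10 leave out *Ndufa4*, counted with complex I, and the 6 isoforms set apart. Of these 6 isoforms, 2 were higher and 4 lower, with a median of -0.27. *Cox7a2*, the broadly expressed COX7A isoform (ENSMUSG00000032330, chromosome 9), was at 200 and 238 CPM in WT and 446 and 531 in null mice, a 2.23-fold difference (log2 1.16, SE 0.26, edgeR adjusted p = 0.0455), and was the only gene of the complex called, a call that was also lost without any 1 mouse. *Cox4i1*, the largest nuclear-encoded subunit, was at 1328 and 1119 against 3318 and 2077 CPM (log2 1.14, SE 0.34, edgeR adjusted p = 0.0921). *Cox6a1*, next to the dimer interface, was at 1076 and 938 against 2803 and 1809 CPM (log2 1.20, SE 0.34, edgeR adjusted p = 0.0783). In both genes the first null mouse stood above the second. The lowest value was that of *Cox7b*, at 206 and 256 against 266 and 300 CPM (log2 0.29, SE 0.28, edgeR adjusted p = 0.56). A difference between complexes was not tested.

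Complex V showed no call at day 15. Of its 17 genes, 13 were higher and 4 lower, with a median of 0.42. The catalytic head is built of alpha and beta subunits in equal number. *Atp5a1*, the alpha subunit, was at 1168 and 865 CPM in WT and 1661 and 1755 in null mice (log2 0.75, SE 0.30, edgeR adjusted p = 0.17), while *Atp5b*, the beta subunit, was at 1199 and 941 against 1179 and 1148 CPM, with overlapping groups. The extremes were *Atp5s*, a low-abundance coupling factor at 7.13 and 6.76 against 16.3 and 14.2 CPM (log2 1.13, SE 0.36, edgeR adjusted p = 0.11), and *Atp5g2*, a copy of the rotor ring subunit c at 149 and 54.8 against 63.9 and 66.5 CPM (log2 -0.65, SE 0.52, edgeR adjusted p = 0.48), where the first WT mouse made the difference. Without it the value was 0.25. *Atpif1*, outside the rule, encodes the inhibitor that keeps the enzyme from running in reverse. It stood at 345 and 315 CPM in WT and 706 and 639 in null mice and was called higher (log2 1.03, SE 0.24, edgeR adjusted p = 0.0498), a call lost without any 1 of the 8 mice and in 6 of 10 other alternatives. With offsets for GC content and length the value was 0.88.

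The level of each complex in each mouse was taken as the median over its genes of log2 CPM, each gene centred on its mean over the 8 mice. Over all 81 genes the levels were -0.36 and 0.09 in the WT mice of day 0, 0.24 and 0.03 in the null mice of day 0, -0.08 and -0.36 in the WT mice of day 15, and 0.35 and 0.18 in the null mice of day 15. The day 15 groups did not overlap, while the first WT mouse of day 0 stood as low as the lower WT mouse of day 15. For complex IV the day 15 values were -0.29 and -0.52 in WT and 0.58 and 0.29 in null mice, the widest gap among the complexes. For complex III they were -0.13 and -0.33 in WT and 0.30 and -0.0048 in null mice. Summed over all 81 genes, the respiratory chain took 28424 and 24212 CPM in the WT and 42156 and 35613 in the null mice of day 15. With 2 mice against 2 an exact two-sided test cannot go below p = 0.333, so no test of these levels was run.

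**Figure D2:**
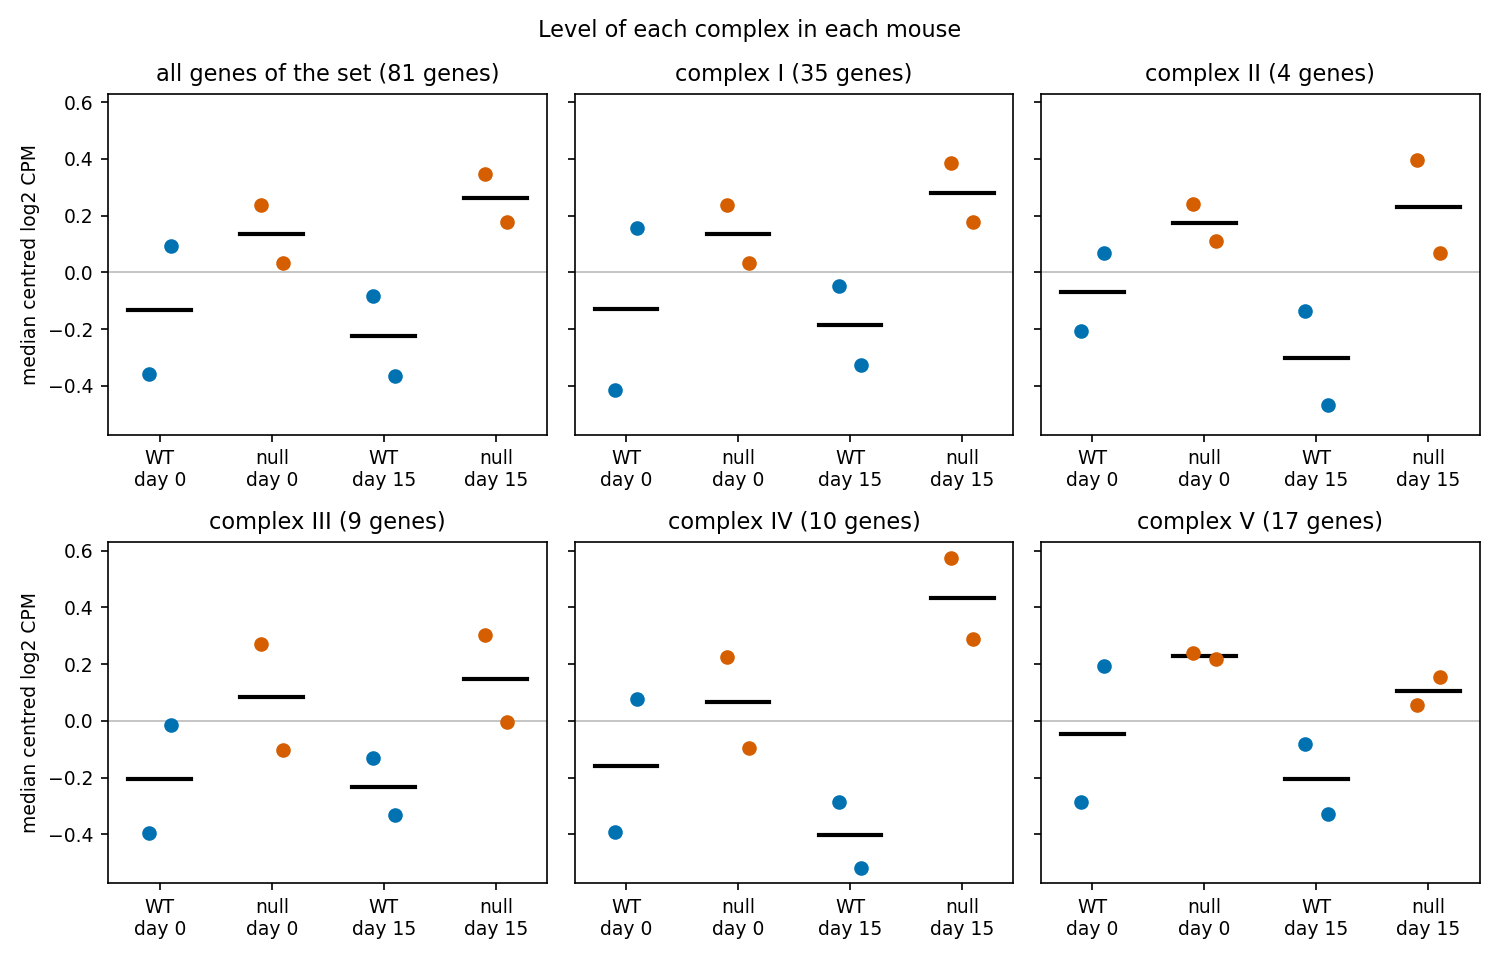
Level of the 81 genes and of each complex in each mouse (vertical axis, median over genes of log2 CPM centred on each gene's mean), by group (horizontal axis). Points are mice, blue WT and orange null, and bars are group means of 2 mice. The null mice of day 15 lie above the WT mice of day 15 in every panel, and the WT mice of day 0 are spread widely, from -0.36 to 0.09 over all genes of the set.

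*Cox7a1* stood apart among the isoforms. The gene (ENSMUSG00000074218, chromosome 7, 30184144 to 30186078, GRCm38) stood at 40.2 and 60.3 CPM in WT mice of day 0, 75.8 and 75.8 in the null mice of day 0, 25.4 and 25.8 in the WT mice of day 15, and 97.9 and 75.4 in the null mice of day 15. Both WT mice of day 15 were the lowest of the 8. The difference between the genotypes at day 15 was 3.38-fold (log2 1.76, SE 0.27, edgeR adjusted p = 0.0187). In WT mice the change from day 0 was -0.96 (SE 0.27, edgeR adjusted p = 0.0564), in null mice 0.19 (SE 0.26, edgeR adjusted p = 0.65). The difference between these changes was 1.15 (SE 0.38, edgeR adjusted p = 0.45, unadjusted 0.0120).

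*Cox7a1* and *Cox7a2* encode alternative forms of 1 subunit, and both were called higher in the null mice at day 15, so the balance between them moved less than either gene. Per kilobase of transcript, the *Cox7a1* share of their sum was 18.5 and 25.1% (WT) and 20.3 and 16.2% (null) at day 0, and 17.6 and 15.3% (WT) and 26.9 and 19.2% (null) at day 15. The day 15 groups did not overlap, by a margin of less than the spread within the null pair. Markers of skeletal muscle, a tissue rich in COX7A1, summed to 30.9 and 18.7 CPM in the WT and 47.9 and 36.8 in the null mice of day 15 over 8 genes. Of the 7 tested, 5 were higher and 2 lower in null mice, with 0 called. The brown fat gene *Ucp1* was at 0.52, 0, 0 and 0 CPM. *Dio2*, the other brown fat marker in the table, was at 7.13 and 19.7 against 1.24 and 1.87 CPM and was called lower in null mice (log2 -3.09, SE 0.64, edgeR adjusted p = 0.0367), in 3 of the 8 fits without 1 mouse too. Heart or slow muscle genes (3) overlapped, at 65.7 and 34.2 against 57.9 and 77.4 CPM. Smooth muscle genes (8) summed to 3678 and 2123 CPM in these WT mice and 5311 and 6085 in the null mice. The part of muscle in the *Cox7a1* difference was not tested.

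The other isoforms were scarce beside their common forms. *Cox4i2*, *Cox6a2*, *Cox8b* and *Ndufa4l2* each made up at most 1.15%, per kilobase, of the pair with *Cox4i1*, *Cox6a1*, *Cox8a* or *Ndufa4* in every mouse. *Cox8b* at 1.30 and 0.106 against 2.48 and 2.81 CPM had the highest fold change of the 81 genes at day 15, log2 1.84 (SE 0.88, edgeR adjusted p = 0.24), and *Ndufa4l2*, a hypoxia-induced relative of *Ndufa4*, at 6.87 and 3.27 against 1.40 and 2.54 CPM had the lowest, -1.35 (SE 0.63, edgeR adjusted p = 0.23). Neither passed the test. The second WT mouse held 1 count of *Cox8b*, and leaving out 1 mouse moved its value between 1.01 and 4.44 and that of *Ndufa4l2* between -1.85 and -0.72. Markers of pericytes and endothelium were lower in null mice at day 15 for 6 of 6 and 4 of 4 genes tested, with 1 of each called. Over all 14371 genes, 7489 were lower and 1.25% were called lower. The part of these markers in the *Ndufa4l2* value was not tested. Among the 3 genes for the identical mature subunit c of the ATP synthase, *Atp5g3* supplied 71.4 to 81.8% of the messenger RNA per kilobase in every mouse.

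*Cox6b2* was the isoform called over time. It stood at 2.55 and 3.57 CPM in WT mice of day 0 and at 15.5 and 17.3 in those of day 15, a 5.56-fold rise (log2 2.47, SE 0.54, edgeR adjusted p = 0.0267). In null mice it went from 2.71 and 2.52 to 5.27 and 13.9 CPM (log2 1.86, SE 0.53, edgeR adjusted p = 0.047), with the mice of day 15 far apart. Its share of the pair with *Cox6b1*, per kilobase, was 0.777 and 0.881% in WT mice of day 0 and 2.98 and 3.51% in those of day 15. The null mice of day 15 were at 0.563 and 2.33%.

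**Figure D3:**
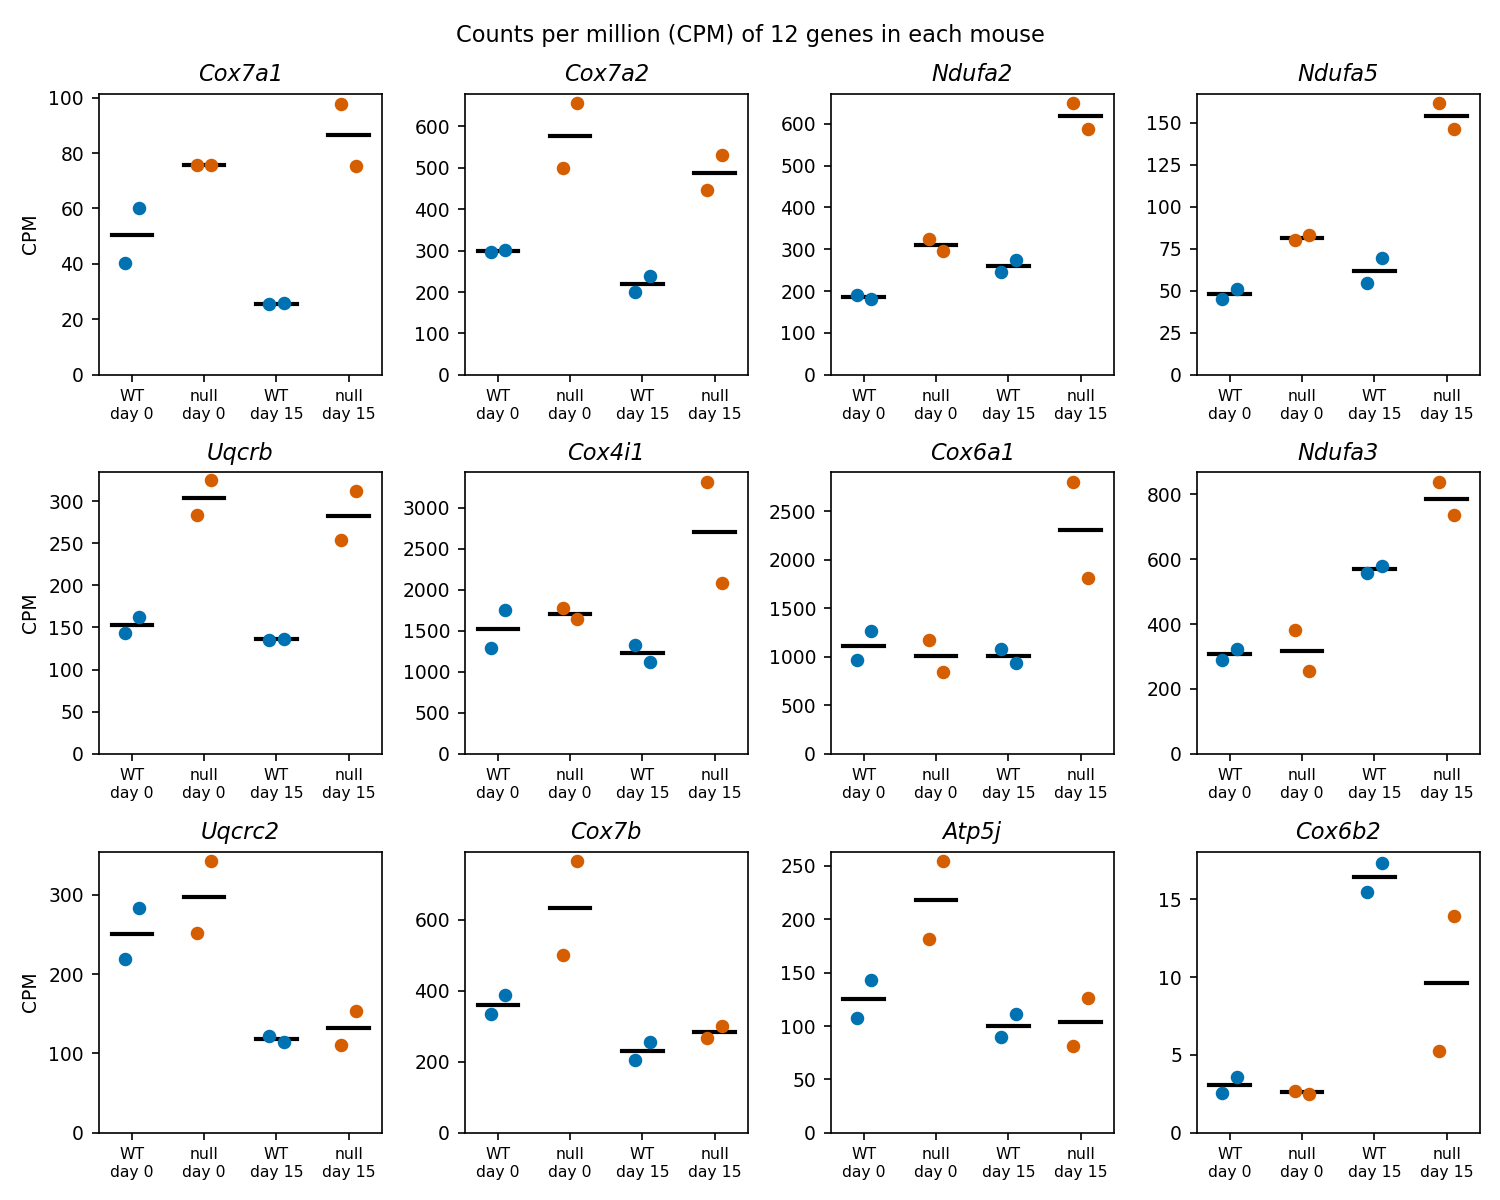
CPM (vertical axis, from 0) of 12 genes in each mouse by group (horizontal axis). Points are mice, blue WT and orange null, and bars are group means of 2 mice. *Cox7a1* is at 25.4 and 25.8 CPM in the WT mice of day 15 and at 75.4 CPM or above in all 4 null mice, while *Uqcrc2* is lower at day 15 in both genotypes.

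Before treatment no respiratory chain gene was called between the genotypes. Of the 81 genes, 65 were higher in null mice at day 0, with a median of 0.17 beside -0.01 over all genes. Both null mice lay above both WT mice for 29 members (18.7% of all genes) and below them for 1 (18.4% of all genes). The edgeR test called 0 members, as it called 0% of all genes, and DESeq2 also called 0. At an unadjusted p under 0.05, 14 members were higher, beside 2.36% of all genes, and 0 were lower. *Uqcrb* was at 144 and 162 CPM in WT and 283 and 324 in null mice (log2 0.99, SE 0.23, edgeR adjusted p = 0.775), and *Cox7a2* at 297 and 303 against 499 and 657 CPM (log2 0.95, SE 0.26, edgeR adjusted p = 0.775), both with separated groups. With offsets for GC content and length the *Uqcrb* value was 0.45. The median rested on the WT pair. It was 0.46 without WT replicate 2 and -0.02 without WT replicate 1. The first WT mouse of day 0, with the lower respiratory chain level, also stood apart from the second in marker sums, with fibroblast genes at 2479 and 918 CPM, leukocyte genes at 999 and 357, adipocyte genes at 288 and 82.6 and epithelial genes at 9799 and 14127, and the part of these in the day 0 values was not tested.

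From day 0 to day 15 in WT mice, 53 of the 81 genes were lower, with a median of -0.16. Of them, 1 rose (*Cox6b2*) and 1 fell (*Uqcrc2*), beside 3.47% and 4.27% of all genes. *Uqcrc2*, a core protein of complex III, went from 219 and 283 to 122 and 114 CPM (log2 -1.08, SE 0.27, edgeR adjusted p = 0.0402), with no overlap. *Ndufa6* went from 400 and 658 to 282 and 266 CPM (log2 -0.95, SE 0.30, edgeR adjusted p = 0.0747), and *Ndufa3*, an accessory subunit of the membrane arm, from 290 and 324 to 557 and 580 CPM (log2 0.89, SE 0.27, edgeR adjusted p = 0.0715). Among the complexes the medians ran from -0.32 for complex IV to -0.09 for complex III. Leaving out WT replicate 1 or 2 of day 0 gave 0 member calls, with 485 and 133 over all genes in place of 1112, and leaving out WT replicate 1 or 2 of day 15 also gave 0, with 773 and 92. The median over the members was -0.39 without WT replicate 1 of day 0 and 0.15 without replicate 2. In the same comparison all 8 smooth muscle markers were lower (5 called), 6 of 7 goblet cell (3 called) and 6 of 7 absorptive colonocyte markers (2 called) were lower, and all 8 leukocyte markers were higher (2 called), beside 4.27% of all genes called lower and 3.47% higher. In null mice 6 of the 8 smooth muscle markers were also lower (median -0.35, 0 called) and 3 of the 7 goblet cell markers were lower (0 called), while 2 colonocyte markers were called lower and 1 leukocyte marker higher, beside 6.48% and 5.3% of all genes. Of the 8 epithelial markers, 4 were higher and 4 lower in WT mice (median 0.0079). In null mice 6 were higher and 2 lower (median 0.27), with 0 called in either genotype. The part of all these markers in the responses was not tested.

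In *Hsf1* null mice the same interval raised 6 members and lowered 3, beside 5.3% and 6.48% of all genes. Among the risen genes were *Cox6b2* and, of complexes I and IV, *Ndufa3*, *Cox6a1*, *Ndufa8* and *Ndufa9*. *Ndufa3* went from 380 and 256 to 838 and 735 CPM (log2 1.30, SE 0.28, edgeR adjusted p = 0.0213). *Cox6a1* went from 1176 and 848 to 2803 and 1809 CPM (log2 1.19, SE 0.34, edgeR adjusted p = 0.047), a call lost without any 1 of the 8 mice. With offsets for GC content and length its value was 0.36. Neither gene had overlapping groups. The accessory subunits *Ndufa8*, from 162 and 96.7 to 292 and 267 CPM, and *Ndufa9*, from 199 and 109 to 337 and 305 CPM, rose by log2 1.10 and 1.05.

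The 3 genes that fell belonged to complexes III, IV and V. *Uqcrc2* went from 252 and 343 to 110 and 153 CPM (log2 -1.17, SE 0.27, edgeR adjusted p = 0.0269), close to the change in WT mice. *Cox7b* went from 501 and 764 to 266 and 300 CPM (log2 -1.16, SE 0.28, edgeR adjusted p = 0.0304). *Atp5j*, coupling factor 6 of the ATP synthase stalk, went from 181 and 255 to 81.3 and 126 CPM (log2 -1.07, SE 0.30, edgeR adjusted p = 0.0444). The calls of *Cox6b2*, *Ndufa9* and *Atp5j* in this comparison held in 1 of the 8 fits without 1 mouse, that of *Ndufa8* in 4, and those of *Ndufa3*, *Uqcrc2* and *Cox7b* in 5. With no fold threshold, *Ndufa2* (log2 0.99, SE 0.23, edgeR adjusted p = 0.0273) and *Ndufa5* (log2 0.92, SE 0.23, edgeR adjusted p = 0.032) joined, giving 8 higher and 3 lower beside 6.07% and 7.23% of all genes. The median over the 81 genes was 0.11, between 0.37 for complex IV and -0.10 for complex V.

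The direction of the null response went with GC content. Across the 81 genes the log2 fold change from day 0 to day 15 in null mice correlated with exon GC content at r = 0.39, beside 0.45 across 14275 genes, all from the same 4 libraries. The 40 members above their median GC content of 51.0% had a median of 0.46 and held 5 of the 6 higher calls, and the other 41 had a median of -0.09 and held the 3 lower ones. With offsets for GC content and length in the fit, 5 members were called in place of 9, beside 716 genes in place of 1692 over all, 1 higher (*Ndufs4*) and 4 lower (*Atp5j*, *Atp5c1*, *Ndufa6* and *Ndufs8*), names that were taken after the values were seen. Only *Atp5j* was called in both fits. With the offsets the values were 0.61 for *Ndufa8* and -0.62 for *Cox7b*. For the WT response the offsets gave 1 higher (*Cox6b2*) and 2 lower (*Cox7a1* and *Ndufa6*), beside 1007 genes in place of 1112 over all. At day 0 the difference between the genotypes correlated with GC content at r = -0.45 across the 81 genes, beside -0.28 across all genes. For the WT response the values were 0.27 and 0.23. For the genotypes at day 15 the correlation was -0.11, beside 0.04 across all genes, and the offsets gave 4 calls, all higher and among them *Cox7a1*, *Ndufa5* and *Cox6a1*, with a median over the 81 genes of 0.37, beside 726 genes in place of 455 over all. Of these 4, 2 were called without offsets, and *Cox7a2* (log2 0.95), *Ndufa2* (0.99) and *Uqcrb* (0.96) were no longer called. Member calls in the null response, 9 beside 1692 over all genes, fell to 0 without null replicate 2 of day 0 (0 over all genes) or of day 15 (361), to 1 without null replicate 1 of day 15 (487), to 5 without any 1 WT mouse (1272 to 1572) and to 3 in a fit of the null mice alone (1380). They stood at 12 without null replicate 1 of day 0 (1891).

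**Figure D4:**
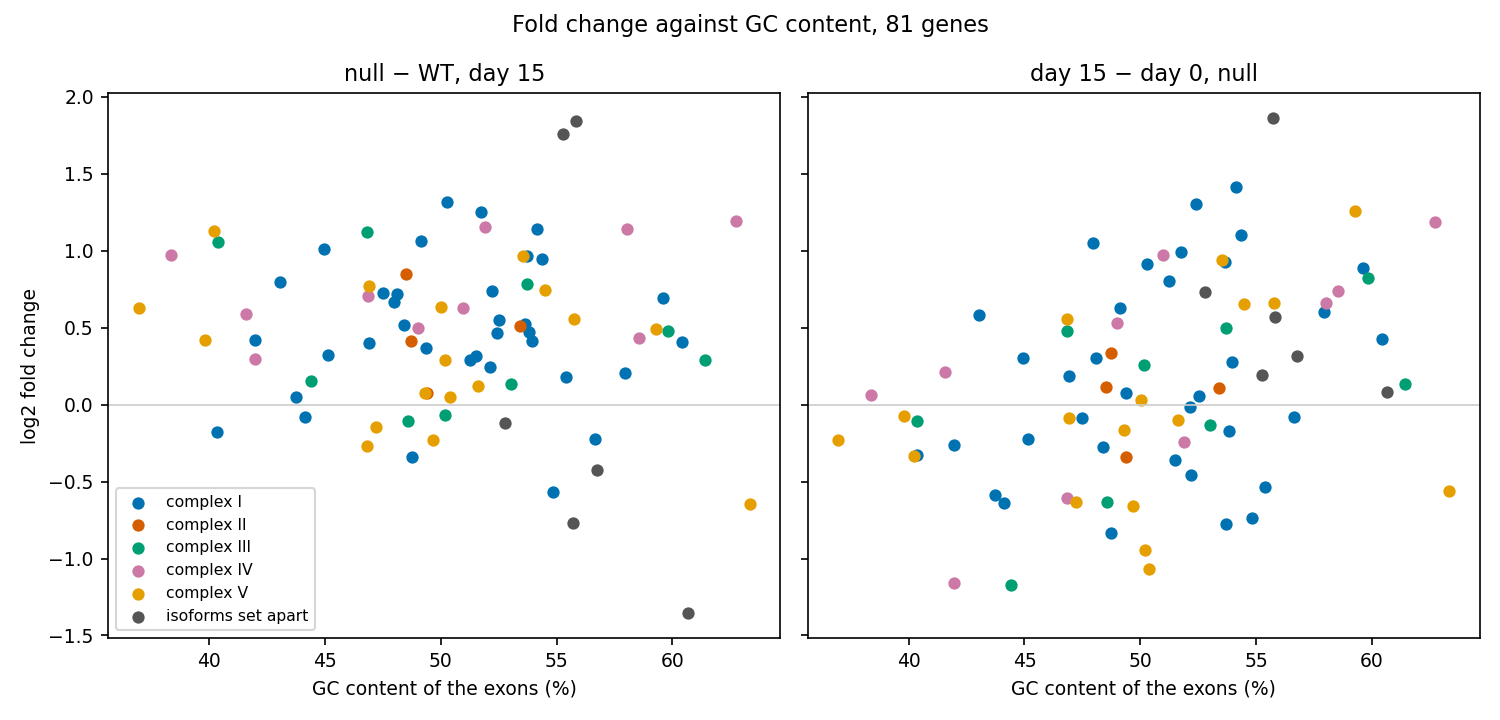
Log2 fold change (vertical axis) against the GC content of the exons in percent (horizontal axis) for the 81 genes, each point a gene coloured by complex, in null minus WT mice at day 15 (left) and day 15 minus day 0 in null mice (right). The points slope upward at right (r = 0.39) and show little slope at left (r = -0.11).

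The 2 responses were compared through the interaction of genotype and day. It called 0 of the 81 genes in edgeR, beside 0.00696% of all genes, and DESeq2 also called 0. At an unadjusted p under 0.05, 3 members had a higher change in null mice, among them *Cox6a1* (log2 1.33, SE 0.48) and *Cox7a1* (log2 1.15, SE 0.38), beside 8.62% of all genes in either direction. The change in null mice lay above that in WT mice for 60 of the 81 genes, beside 50.2% of all genes. The median difference was 0.24, beside 0.0034 over all genes, and it ranged from 0.031 to 0.46 when 1 mouse was left out. The responses share no mouse and correlated across the 81 genes at r = 0.65, beside 0.57 across all genes. Both were positive for 26 members and negative for 33, and 20 were lower in WT and higher in null mice.

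**Figure D5:**
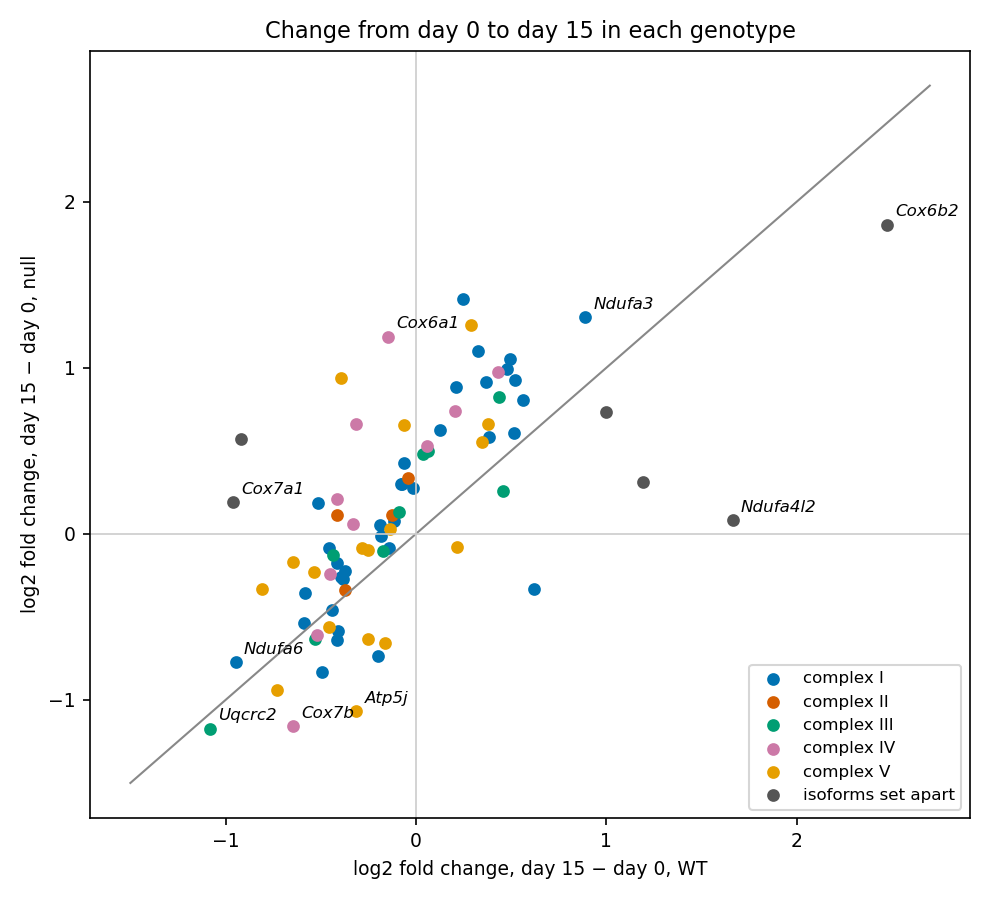
Log2 fold change from day 0 to day 15 in WT mice (horizontal axis) against that in *Hsf1* null mice (vertical axis), each point 1 of the 81 genes coloured by complex. The diagonal marks equal change. *Cox6b2* and *Uqcrc2* lie at the 2 ends of both axes, and 60 genes lie above the diagonal.

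Promoter sequences from RefSeq (GRCm38.p6, 250 bases before to 50 after the start) were matched for 66 of the 81 genes, 3 of them by an older symbol. The NRF1 core CGCATGCG, the recognition letters of a known activator of respiratory chain genes, stood in 9 of the 66 (13.6%) and in 2.07% of 27025 genes with a promoter. The ETS core CCGGAAGT, bound by GABPA, stood in 5 (7.58%) and in 4.31% of all. The heat shock element letters TTCNNGAA and GAANNTTC, searched together as pairs of the inverted repeats that HSF1 binds, stood in 7 (10.6%) and in 17.0% of all. Both strands were searched. The 9 genes with the NRF1 core had a median change of 0.61 from day 0 to day 15 in null mice, beside 0.06 for the other 57, and a median exon GC content of 55.8% beside 49.7%. Between the genotypes at day 15 their median was 0.42 beside 0.50.

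The 250 bases before the start are shown for the *Cox7a1* and *Cox7a2* pair, which holds none of these letters, and for *Cox6a1* and *Ndufa8*, which rose in null mice and hold the NRF1 core. The core is in capitals, on build GRCm38.p6.
Cox7a1, chr7:30183921-30184170, plus strand: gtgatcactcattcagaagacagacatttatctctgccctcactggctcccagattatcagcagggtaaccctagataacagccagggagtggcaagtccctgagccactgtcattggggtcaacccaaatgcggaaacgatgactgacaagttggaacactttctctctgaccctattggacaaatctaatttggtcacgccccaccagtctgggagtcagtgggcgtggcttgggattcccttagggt
Cox7a2, chr9:79759854-79760103, minus strand: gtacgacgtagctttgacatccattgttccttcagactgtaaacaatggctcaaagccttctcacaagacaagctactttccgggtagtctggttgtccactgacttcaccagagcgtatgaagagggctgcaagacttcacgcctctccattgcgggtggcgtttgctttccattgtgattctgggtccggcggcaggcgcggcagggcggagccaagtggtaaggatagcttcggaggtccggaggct
Cox6a1, chr5:115348959-115349208, minus strand: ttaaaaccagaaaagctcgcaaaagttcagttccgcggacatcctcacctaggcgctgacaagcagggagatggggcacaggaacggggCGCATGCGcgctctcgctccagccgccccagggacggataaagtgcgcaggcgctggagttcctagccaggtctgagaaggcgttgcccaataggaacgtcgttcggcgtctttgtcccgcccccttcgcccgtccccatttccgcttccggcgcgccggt
Ndufa8, chr2:36049339-36049588, minus strand: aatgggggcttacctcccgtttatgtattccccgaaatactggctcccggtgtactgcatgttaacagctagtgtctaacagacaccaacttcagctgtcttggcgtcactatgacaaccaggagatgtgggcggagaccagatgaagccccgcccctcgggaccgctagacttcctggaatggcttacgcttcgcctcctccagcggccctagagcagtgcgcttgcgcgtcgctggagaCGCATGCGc
The core begins 161 bases before the start in *Cox6a1* and 9 before it in *Ndufa8*. It also stands 147 bases before a start of *Atp5j*, which fell in the same comparison.

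Other nuclear genes for mitochondria were counted for comparison. Of 46 assembly factors of the 5 complexes, 33 were higher in null mice at day 15, with 0 called and a median of 0.24. Over all genes 47.9% were higher, 1.91% were called higher and 1.25% lower, shares that also stand beside the day 15 counts below. The median was 0.32 for the 20 factors of complex IV, 0.84 for the 6 of complex III, 0.24 for the 13 of complex I, 0.23 for the 3 of complex V and -0.15 for the 4 of complex II. The 77 mitochondrial ribosomal protein genes had a median of -0.02, with 36 higher and 0 called, and the 10 genes of outer membrane and import a median of -0.10 with 0 called. The 13 citric acid cycle genes had a median of 0.14, with 9 higher and 0 called. Over time that list was lower in both genotypes, with medians of -0.53 in WT mice (0 called, beside 4.27% of all genes called lower) and -0.51 in null mice (2 called lower, beside 6.48%). Only 5 cytosolic ribosomal protein genes were in the table, with a median of 0.60 at day 15 and 0 called.

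Among the 12 regulators of mitochondrial biogenesis, 0 were called between the genotypes at day 15, beside 1.91% of all genes called higher and 1.25% lower. *Ppargc1a*, the coactivator PGC-1alpha that drives respiratory chain genes, stood at 71.0 and 73.0 CPM in WT mice of day 0 and fell to 12.4 and 3.49 at day 15 (log2 -3.16, SE 0.59, edgeR adjusted p = 0.0165), called in 6 of the 8 fits without 1 mouse. In null mice it was at 72.4 and 85.9 CPM at day 0 and 47.3 and 16.9 at day 15 (log2 -1.30, SE 0.55, edgeR adjusted p = 0.13). The difference between the genotypes at day 15 was 1.99 (SE 0.57, edgeR adjusted p = 0.0804), between 1.07 and 3.19 when 1 mouse was left out, and it was called without WT replicate 1 or null replicate 2 of day 15 and in DESeq2. In the null response 1 regulator was called lower, *Gabpa* (log2 -1.71, SE 0.29, edgeR adjusted p = 0.0140), from 44.7 and 69.4 to 16.3 and 18.2 CPM, and 1 higher, the mitochondrial RNA polymerase *Polrmt* (log2 1.24, SE 0.36, edgeR adjusted p = 0.0465), from 32.4 and 14.0 to 56.9 and 56.4 CPM, beside 6.48% of all genes called lower and 5.3% higher. The call of *Gabpa* held in 6 of the 8 fits without 1 mouse and that of *Polrmt* in 1, and with offsets for GC content and length, where neither was called, the values were -0.98 and 0.70. Of the 6 carriers and subunits outside the rule, 3 were higher and 3 lower in null mice at day 15 (median -0.11), with *Slc25a4* lowest (log2 -1.35). The 1 called was higher, the supercomplex factor *Cox7a2l*, at 112 and 90.0 against 269 and 207 CPM (log2 1.24, SE 0.28, edgeR adjusted p = 0.0457), beside 1.91% of all genes. That call held in 1 of the 8 fits without 1 mouse. The ADP/ATP carrier *Slc25a5* fell from day 0 to day 15 in null mice, from 998 and 1191 to 318 and 391 CPM (log2 -1.63, SE 0.32, edgeR adjusted p = 0.0194, called in 5 of the 8 fits without 1 mouse).

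Cell type markers also differed between the genotypes at day 15. At day 15, 8 epithelial genes summed to 14444 and 15527 CPM in WT and 22123 and 19560 in null mice (median log2 fold change 0.47). The 7 goblet cell genes summed to 6968 and 9139 against 38781 and 18697 CPM, and the 7 absorptive colonocyte genes in the table to 1116 and 2900 against 7232 and 3394. Fibroblast genes (6) summed to 2321 and 2344 against 438 and 1408 CPM, and leukocyte genes (8) to 1063 and 2094 against 348 and 731. None of these summed levels overlapped between the genotypes at day 15. At day 0 the colonocyte genes summed to 3389 and 6066 CPM in WT and 9172 and 9002 in null mice, without overlap. The epithelial, goblet cell, fibroblast and leukocyte sums overlapped then. Epithelial genes were at 9799 and 14127 against 16527 and 11001 CPM, and goblet cell genes at 18414 and 26695 against 26079 and 21492. Fibroblast genes were at 2479 and 918 against 771 and 1130 CPM, and leukocyte genes at 999 and 357 against 449 and 476. The part of cell composition in the respiratory chain differences was not tested. In bulk tissue, fewer cells of a type and less RNA per cell cannot be told apart.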

How the data were processed

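Poly(A) RNA of 8 distal colons was sequenced from a Lexogen SENSE mRNA library kit. Per the labels, the authors used STAR, DESeq2 and the mouse build mm10, and deposited a table of raw counts per gene and a second table in which each count had been divided by its library size factor (signal), used as a check only. The counting tool and annotation are not given in the sources used here, so counts of genes with near-identical pseudogenes or paralogs are uncertain. The genes and lists were chosen with earlier results of these data known.

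The quasi-likelihood test of edgeR 4.0.16 (R 4.3.3) was run on genes whose normalized counts averaged above 5, after TMM normalization, in 1 model of the 4 groups, and p-values were adjusted over all 14371 genes (Benjamini-Hochberg). SE is the absolute log2 fold change divided by the square root of F. CPM used TMM-scaled library sizes, with 0.5 added for log2 levels. Symbols were matched to GENCODE on GRCm38 for 99.1% of the genes. Values per kilobase used the median transcript length. Genes named were those called, the isoforms with their counterparts, catalytic subunits and the extremes of each complex. The values of 1 gene are not reported here. Alternatives included DESeq2 1.42.0, other filters, offsets for GC content and length, the replicate number as a block, thinning and leaving out each mouse. The tests were checked on simulated data. Same-numbered mice are different animals, and their deviations correlated between -0.30 and 0.17, so mice were not paired.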

Additional observations from a re-analysis of the deposited data

How the results depend on the processing

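Counts of called members changed with the setting. Between the genotypes at day 15, 5 members were called, with 455 over all genes, against 11 in DESeq2 (1177 over all genes), 3 with the replicate block (343), 2 with GC and length offsets and the block (358), and 0 in a fit of the day 15 mice alone (6). With no fold threshold the 5 (456 over all genes) became 15 (1290), 3 (343), 2 (361) and 0 (6) in those settings and 8 (826) with GC and length offsets. In the WT response the 2 calls (1112 over all genes) became 1 with offsets and the block (605). With no fold threshold the 2 (1169) became 5 in DESeq2 (1967), 4 with offsets (1158) and 1 with offsets and the block (617). In the null response the 9 calls (1692 over all genes) became 5 with offsets (716), 2 with offsets and the block (330) and 3 in a fit of the null mice alone (1380), and with no fold threshold the 11 (1912) became 6 (854), 2 (331) and 3 (1380). The replicate numbers are not a pairing of the design. With the 2 WT day 0 numbers exchanged, a block chosen after seeing the data, calls between the genotypes at day 15 became 11 (1314 over all genes), or 17 with no fold threshold (1600), and those with no fold threshold became 5 in the WT (2290) and 20 in the null response (3115). The cause of these changes was not tested. At day 0 and for the interaction, 0 members were called in every alternative run.

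Leaving out 1 mouse gave 0 to 5 calls between the genotypes at day 15 (0 to 5 with no fold threshold), 0 to 2 (0 to 3) in the WT response and 0 to 12 (0 to 12) in the null response. The median at day 15 ranged from 0.26 to 0.65 for complex II, 0.15 to 0.52 for III and 0.22 to 0.52 for V. At day 0 it ranged from -0.023 to 0.46 for all members, -0.0089 to 0.45 for complex I, 0.023 to 0.41 for III, -0.053 to 0.50 for IV and -0.029 to 0.58 for V. In the WT response it ranged from -0.39 to 0.15 for all members, -0.39 to 0.22 for complex I, -0.40 to -0.049 for II, -0.47 to 0.014 for IV and -0.54 to 0.052 for V. In the null response complex III ranged from -0.0049 to 0.37. The median interaction ranged from 0.031 to 0.46 for all members, 0.10 to 0.48 for complex II, -0.023 to 0.52 for III, 0.17 to 0.85 for IV and -0.022 to 0.40 for V. *Atp5g2* at day 15 ranged from -1.20 (without WT replicate 2) to 0.25 (without WT replicate 1), and *Sdhd* was -0.19 without WT replicate 2 and -0.046 without null replicate 1. *Cox7a1* in the null response was -0.0034 without null replicate 1 of day 15.

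With GC and length offsets the complex III median in the WT response was -0.34 (also -0.34 with the block), *Sdhd* at day 15 was -0.0873 (-0.0772 with the block) and *Cox7a1* in the null response -0.41 (-0.40 with the block). Over the 55 log2 fold changes of single genes that were called or are given in the text, 987 alternative values were computed. In 776 the direction and the side of the threshold were the same, in 179 a call was lost, in 24 a call was gained and in 8, printed here, the sign changed. The members above their median GC content, a split chosen after seeing the data, had a median of 0.46 in the null response. In CPM without length, group means of isoform shares were 14.3, 11.8, 10.5 and 15.2% for *Cox7a1* (WT and null at day 0, then at day 15), 0.742% for *Cox6b2* in WT at day 0, 0.130, 0.152 and 0.152% for *Cox8b* (WT and null at day 0, null at day 15), 0.702, 0.484, 1.42 and 0.598% for *Ndufa4l2*, 20.8, 18.5, 32.6 and 27.8% for *Atp5g1*, 11.3, 11.3, 10.7 and 7.72% for *Atp5g2*, and 67.9, 70.3, 56.8 and 64.5% for *Atp5g3*.

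Depth limits the scarce isoforms and the shallow second mice of day 0, and 2 mice a group limit every test.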
